A study of Mus musculus with 18 samples.

Results

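The EGR, NR4A and TOX genes are genes of transcription factors, and of a partner protein, that T cells regulate when their antigen receptor is engaged. They were followed through 10 members: Egr1, Egr2, Egr3 and their partner Nab2, then Nr4a1, Nr4a2 and Nr4a3, then Nfatc1, and then Tox and Tox2. Each was read from the probe set that carries only its symbol, and from the brightest such probe set for Nab2, which had 2. All 10 exceeded the array median on 18 of 18 arrays and so were among the 13034 genes tested. The cells were thymic invariant natural killer T (iNKT) cells of C57BL/6 mice, sorted as cells bearing T cell receptor beta that bound the PBS57-loaded CD1d tetramer and lacked CD24. Stage 1 (S1) cells lacked CD44 and NK1.1, stage 2 (S2) cells had CD44 and lacked NK1.1, and stage 3 (S3) cells had both. The groups were Mst1KO S1, S2 and S3, and WT S1, S2 and S3, each with 3 Affymetrix MoGene-2_0 arrays. Mst1KO mice carried floxed Mst1 alleles and Cd4-Cre (Cd4CreMst1fl/fl). The Cd4 promoter is active from the CD4-bearing stages of thymocytes on, so conventional T cells lose the gene too. Both genotypes went through the same CD8 microbead step before the sort. The sources used here do not give the age of the mice, or whether WT mice carried Cre or a floxed allele. The design text counts 3 mice of each genotype, and the labels leave unsaid whether 1 mouse gave all 3 stages and what a replicate number stands for, so that p-values reflect only how far these arrays spread.

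When the T cell receptor binds its ligand, calcium and calcineurin move NFAT proteins such as NFATc1 into the nucleus, and the RAS-ERK branch acts through SRF and its partners to switch on Egr1, Egr2 and Egr3 within a short time. NAB2 is a corepressor that binds EGR proteins and is itself induced by them. NR4A1 (NUR77) is an orphan nuclear receptor used as a reporter of receptor signal strength, and NR4A2 and NR4A3 are its close relatives. TOX is a DNA-bending HMG-box protein needed for CD4 lineage and natural killer T cell development, and TOX2 is its relative, known in follicular helper T cells and natural killer cells. In iNKT precursors, strong agonist signals induce EGR2, which turns on Zbtb16, the gene of the lineage factor PLZF.

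The deposited values were log2 expression made with RMA, per the submitters' processing notes, and a difference of 1 is a doubling. Arrays of 1 group correlated at 0.976 to 0.986 over all probe sets. Stk4, which encodes MST1, lay lower on every Mst1KO array than on any WT array of its stage, with 7.56 to 7.67 in Mst1KO S1 and 7.70 to 8.10 in WT S1, 7.40 to 7.54 in Mst1KO S2 and 7.73 to 7.91 in WT S2, and 7.56 to 7.74 in Mst1KO S3 and 7.80 to 8.20 in WT S3. It passed the test only when the 3 stages were averaged (-0.34 ± 0.06, SE, adjusted p = 0.0297), and the sources used here do not name the exons that the floxed alleles remove. Klrb1c, which encodes NK1.1, was highest at S3, the stage gated for it, averaging 2.90 at S1, 4.94 at S2 and 8.78 at S3 in Mst1KO, and 3.08, 5.27 and 8.51 in WT. It also passed as higher at S2 than at S1, both gated as lacking NK1.1 (2.04 ± 0.23 in Mst1KO and 2.19 ± 0.23 in WT), and Cd24a, of the marker gated as absent, as higher at S3 than at S2 (0.74 ± 0.19 and 0.82 ± 0.19). Cd3e and Zbtb16 lay far above the array medians (4.81 to 4.93) on all arrays.

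The windows before the transcription starts of the NR4A genes and of Egr2 are shown because Nr4a1 and Nr4a2 passed between the genotypes at S3, and because the windows hold a short motif in common. Sequences are RefSeq's, of mouse build GRCm38.p6, 250 bases before the annotated start on the gene's own strand. Windows on 1 chromosome were left out for the members, though not in the counts over all genes. Of the 10 members, 6 had 1 or more of the remaining windows, 14 windows in all. No window of Egr1, Egr3, Nfatc1 or Tox was searched. Capitals mark TGACG on either strand, which is one side of the cyclic AMP response element (CRE), and, in Egr2, also the CArG box that SRF binds, which is CC and GG around a run of A and T. The Nr4a1 window is chr15:101266596-101266845 on the plus strand, that of Nr4a2 chr2:57124004-57124253 on the minus strand, and that of Nr4a3 chr4:48045055-48045304 on the plus strand. The Egr2 window is chr10:67537619-67537868 on the plus strand, the third of the 5 that RefSeq gives it.
Nr4a1: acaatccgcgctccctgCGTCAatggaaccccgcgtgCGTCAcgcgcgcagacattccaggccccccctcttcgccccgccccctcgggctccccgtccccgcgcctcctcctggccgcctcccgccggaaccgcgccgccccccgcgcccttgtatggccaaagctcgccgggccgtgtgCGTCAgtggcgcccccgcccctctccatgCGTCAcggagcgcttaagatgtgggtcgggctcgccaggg
Nr4a2: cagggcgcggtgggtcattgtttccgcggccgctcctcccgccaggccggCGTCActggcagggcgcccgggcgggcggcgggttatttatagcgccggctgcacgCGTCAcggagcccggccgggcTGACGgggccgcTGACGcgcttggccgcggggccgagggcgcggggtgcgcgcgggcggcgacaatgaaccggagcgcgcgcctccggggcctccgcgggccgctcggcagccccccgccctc
Nr4a3: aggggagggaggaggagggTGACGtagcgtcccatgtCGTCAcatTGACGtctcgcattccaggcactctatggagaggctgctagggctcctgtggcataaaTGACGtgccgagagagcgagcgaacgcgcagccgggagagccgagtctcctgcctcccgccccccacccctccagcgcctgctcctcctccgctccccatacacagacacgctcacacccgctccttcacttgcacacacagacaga
Egr2: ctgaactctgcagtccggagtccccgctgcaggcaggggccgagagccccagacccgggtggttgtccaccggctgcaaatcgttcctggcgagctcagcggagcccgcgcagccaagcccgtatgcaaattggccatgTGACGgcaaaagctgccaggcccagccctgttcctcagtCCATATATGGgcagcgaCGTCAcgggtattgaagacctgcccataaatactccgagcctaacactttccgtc

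Each NR4A window held TGACG 4 times. The matches began 233, 213, 69 and 40 bases upstream of the start in Nr4a1, at 200, 144, 123 and 111 bases in Nr4a2, and at 231, 213, 205 and 147 bases in Nr4a3. Of the 32851 windows of all genes 17.8% held the motif at least once, 3.9% at least 2 times and 0.137% at least 4 times. The Egr2 window had 2 matches, at 111 and 55 bases, with the CArG box at 72 bases between them, and 1.47% of all windows held a CArG box. Egr2 windows 1 and 2 held no TGACG, and windows 4 and 5, which overlap the one shown, held 2 each. Among windows not shown, Tox2 window 3 held 1. None of the 14 windows held the EGR motif GCGTGGGCG (0.536% of all windows), the NR4A monomer motif AAAGGTCA (1.34%) or the full palindromic CRE TGACGTCA (1.55%). The NFAT core TGGAAA was found only in Egr2 window 2, at 65 bases, and 18.6% of all windows held it. TGACG was searched for after the letters had been seen, it is part of the full CRE, and a match describes the letters and is not a binding site.

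**Figure D1:**
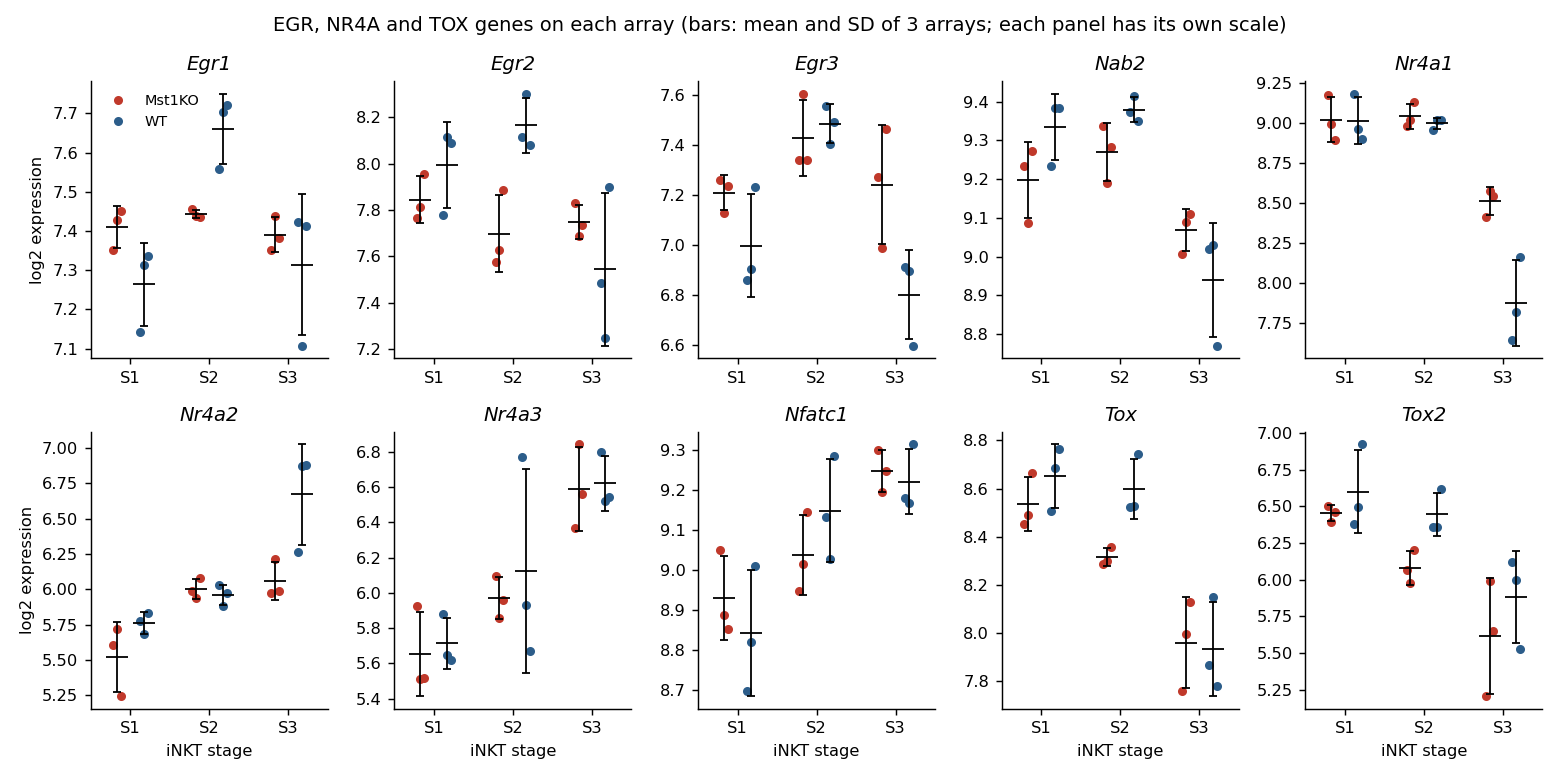
Log2 expression of each of the 10 genes (y axis, 1 panel per gene) on all 18 arrays, by stage (x axis), with Mst1KO left of WT in each stage; points are arrays, bars are the mean and SD of 3 arrays, and each panel has its own scale. Nr4a1 lay between 8.41 and 8.58 on the 3 Mst1KO S3 arrays and between 7.64 and 8.17 on the 3 WT S3 arrays.

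Among the EGR genes, WT cells had their highest mean levels at S2 and their lowest at S3 for Egr2 and Egr3. The Mst1KO means ran from 7.70 to 7.85 for Egr2 and from 7.21 to 7.43 for Egr3, which was highest at S2 there too. Egr2 read 7.77, 7.81 and 7.96 in stage 1, 7.58, 7.63 and 7.89 in stage 2, and 7.83, 7.69 and 7.73 in stage 3 in Mst1KO cells. In WT cells Egr2 read 7.78, 8.12 and 8.09 in stage 1, 8.12, 8.30 and 8.08 in stage 2, and 7.48, 7.25 and 7.90 in stage 3. The S3 and S2 arrays of WT did not overlap, whereas those of Mst1KO did. Egr3 read 7.26, 7.13 and 7.24 in stage 1, 7.34, 7.60 and 7.34 in stage 2, and 7.27, 6.99 and 7.46 in stage 3 in Mst1KO cells. In WT cells Egr3 read 6.86, 6.90 and 7.23 in stage 1, 7.56, 7.40 and 7.49 in stage 2, and 6.91, 6.89 and 6.60 in stage 3. WT S3 held the single lowest Egr3 reading and overlapped WT S1, and its 3 arrays lay below all 3 Mst1KO S3 arrays.

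Egr1, a fast-responding immediate early gene, moved over a narrower span. It read 7.35, 7.43 and 7.45 in stage 1, 7.46, 7.44 and 7.44 in stage 2, and 7.35, 7.44 and 7.38 in stage 3 in Mst1KO cells, where the 3 stages overlapped. In WT cells it read 7.14, 7.31 and 7.34 in stage 1, 7.56, 7.70 and 7.72 in stage 2, and 7.42, 7.11 and 7.41 in stage 3, with all 3 S2 arrays above the arrays of the other stages. Nab2 averaged 9.20 ± 0.10 at S1, 9.27 ± 0.07 at S2 and 9.07 ± 0.05 at S3 in Mst1KO cells, and 9.34 ± 0.09, 9.38 ± 0.03 and 8.94 ± 0.15 in WT cells (SD, n = 3 each). Its dimmer probe set averaged 6.90, 6.73 and 6.37 in Mst1KO and 6.94, 6.80 and 6.33 in WT, so both probe sets were lowest at S3 in both genotypes.

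Nr4a1 fell into 3 tiers with no overlap between them. The 12 arrays of S1 and S2 formed the top tier, Mst1KO S3 the middle one and WT S3 the lowest. Nr4a1 read 9.18, 8.99 and 8.90 in stage 1, 8.98, 9.02 and 9.13 in stage 2, and 8.41, 8.58 and 8.55 in stage 3 in Mst1KO cells. In WT cells it read 9.18, 8.96 and 8.90 in stage 1, 8.96, 9.02 and 9.02 in stage 2, and 7.64, 7.82 and 8.17 in stage 3. Within S1 and within S2 the genotypes overlapped.

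Nr4a2 ran the other way. It read 5.61, 5.72 and 5.24 in stage 1, 5.99, 5.94 and 6.08 in stage 2, and 5.97, 6.21 and 5.99 in stage 3 in Mst1KO cells. In WT cells it read 5.78, 5.68 and 5.83 in stage 1, 6.03, 5.88 and 5.97 in stage 2, and 6.26, 6.87 and 6.88 in stage 3. WT S3 was the highest group, above Mst1KO S3 on every array, and Mst1KO S3, Mst1KO S2 and WT S2 overlapped below it. Nr4a3 was highest at S3 in both genotypes, at 6.59 ± 0.24 in Mst1KO and 6.62 ± 0.15 in WT (SD, n = 3 each), and the 2 groups overlapped. At S2 it averaged 5.97 ± 0.12 in Mst1KO and 6.12 ± 0.58 in WT, where 1 array read 6.77 and the other two 5.93 and 5.67. The Nr4a2, Nr4a3 and Tox2 probe sets exceeded their array's 75th percentile (6.72 to 6.88) on only 2, 1 and 1 of the 18 arrays, so they lay in a dim range where changes are compressed.

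**Figure D2:**
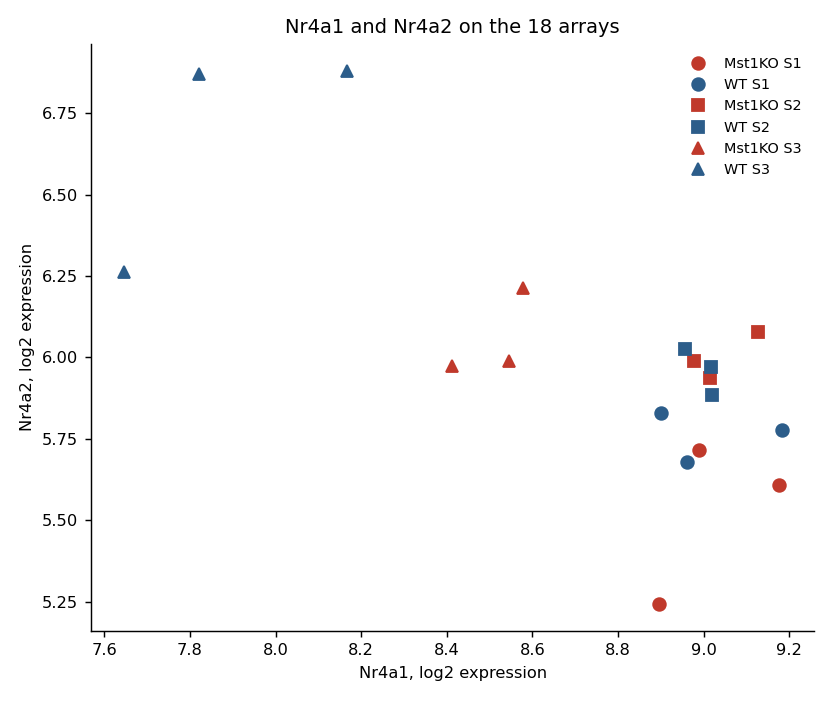
Log2 expression of Nr4a1 (x axis) and Nr4a2 (y axis), 1 point per array, with colour for genotype and shape for stage. The 3 WT S3 arrays lie at the upper left, with Nr4a1 at 8.17 or below and Nr4a2 at 6.26 or above. The 3 Mst1KO S3 arrays lie between them and the S1 and S2 arrays on the Nr4a1 axis, and overlap the S2 arrays on the Nr4a2 axis.

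Nfatc1 differed by at most 0.11 between the genotypes at any stage, averaging 8.93 ± 0.10 at S1, 9.04 ± 0.10 at S2 and 9.25 ± 0.05 at S3 in Mst1KO, and 8.84 ± 0.16, 9.15 ± 0.13 and 9.22 ± 0.08 in WT (SD, n = 3 each). Tox was lowest at S3 in both genotypes. It read 8.45, 8.49 and 8.66 in stage 1, 8.29, 8.30 and 8.36 in stage 2, and 7.76, 7.99 and 8.13 in stage 3 in Mst1KO cells. In WT cells it read 8.51, 8.68 and 8.76 in stage 1, 8.52, 8.53 and 8.74 in stage 2, and 7.87, 8.15 and 7.78 in stage 3. The 6 S3 arrays lay below all S1 and S2 arrays, and at S2 every Mst1KO array lay below every WT array. Tox2 averaged 6.45 ± 0.05 at S1, 6.08 ± 0.12 at S2 and 5.62 ± 0.39 at S3 in Mst1KO, and 6.60 ± 0.29, 6.45 ± 0.15 and 5.88 ± 0.31 in WT.

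Between S2 and S3, the step at which NK1.1 is gained, most of these genes were lower at S3 in WT cells. Nr4a1 fell most in absolute terms (-1.12 ± 0.12 on the log2 scale, SE, 2.17-fold lower, adjusted p = 3.38e-06). Egr3 was 1.60-fold lower (-0.68 ± 0.13, adjusted p = 0.00113), Tox 1.59-fold lower (-0.67 ± 0.12, adjusted p = 0.000502) and Egr2 1.54-fold lower (-0.62 ± 0.14, adjusted p = 0.00422). Nab2 fell by 0.44 ± 0.09 (adjusted p = 0.0017) and Egr1 by 0.35 ± 0.09 (adjusted p = 0.0122). Tox2 fell by 0.56 ± 0.19 (adjusted p = 0.0369). Against them, Nr4a2 was 1.64-fold higher (0.71 ± 0.15, adjusted p = 0.00211). Thus 8 of 10 members passed the test in WT, 7 lower and 1 higher, against 23.6% of all genes tested (13.2% lower and 10.4% higher). In the 7 lower genes no S3 array overlapped an S2 array, which held for 18.7% of all genes. The median of the 10 differences was -0.50, and that of all genes 0.00. Nr4a3 (0.50 ± 0.21, adjusted p = 0.108) and Nfatc1 (0.07 ± 0.10, adjusted p = 0.665) did not pass. The call of Tox2 was lost without any 1 of WT S2 replicates 1, 2 and 3 or WT S3 replicates 2 and 3 (adjusted p 0.0518 to 0.177), and that of Egr1 without WT S3 replicate 2 (-0.24, adjusted p = 0.0733). In a fit on WT S3 and S2 alone both missed it (adjusted p = 0.0612 for Tox2 and 0.107 for Egr1), and Tox2 also missed it with no filter (0.0554) and with array weights (0.0819).

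In Mst1KO cells the same step gave 2 calls among the 10, both lower, against 17.2% of all genes (9.18% lower), which is a share near the background. Nr4a1 was 1.44-fold lower at S3 (-0.53 ± 0.12, adjusted p = 0.0056) and Tox 1.28-fold lower (-0.36 ± 0.12, adjusted p = 0.0491). The median difference was -0.12, and that of all genes -0.03. The 3 EGR genes showed little movement here, with 0.05 ± 0.14 for Egr2 (95% interval -0.25 to 0.36), -0.19 ± 0.13 for Egr3 (-0.47 to 0.10) and -0.05 ± 0.09 for Egr1 (-0.25 to 0.15). Nab2 had -0.20 ± 0.09 (adjusted p = 0.142). An unadjusted p under 0.05 was reached by 5 of the 10 members, and the share of all genes at that level was not counted. Nr4a2 had 0.06 ± 0.15 (-0.26 to 0.37). Nr4a3 came to 0.62 ± 0.21 (adjusted p = 0.058) and Tox2 to -0.47 ± 0.19 (adjusted p = 0.102). The call of Tox was lost in 13 of the 18 fits that left out 1 array, with an adjusted p of up to 0.225 (-0.25 without Mst1KO S3 replicate 1).

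**Figure D3:**
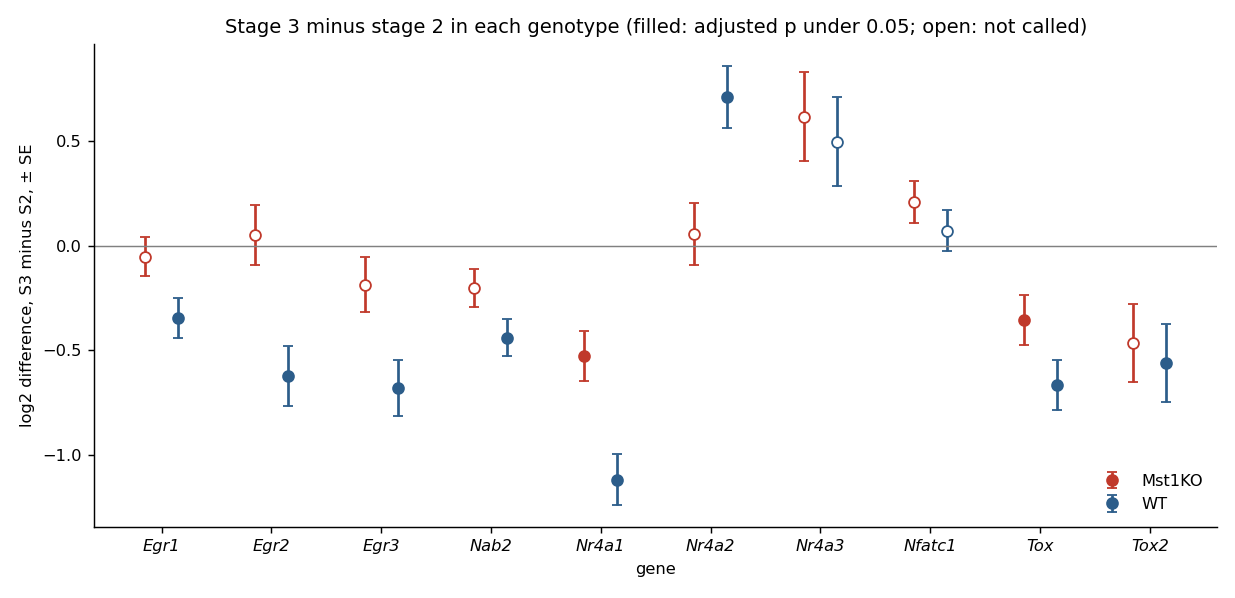
Log2 difference of S3 minus S2 (y axis) with its SE for each of the 10 genes (x axis), in Mst1KO and in WT; filled points passed an adjusted p under 0.05 over all genes and open points did not. In WT 8 points are filled, from -1.12 for Nr4a1 to 0.71 for Nr4a2, and in Mst1KO those of Nr4a1 and Tox.

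Whether these S2 to S3 changes differed between the genotypes was tested directly, as the Mst1KO change minus the WT change. None of the 10 members passed, against 0.368% of all genes. An unadjusted p under 0.05, which was not counted over all genes, was reached by 5. The estimates were 0.68 ± 0.20 for Egr2 (adjusted p = 0.191), 0.59 ± 0.17 for Nr4a1 (adjusted p = 0.172), 0.50 ± 0.19 for Egr3 (adjusted p = 0.304), 0.29 ± 0.13 for Egr1 (adjusted p = 0.409) and -0.65 ± 0.21 for Nr4a2 (adjusted p = 0.225). The estimate was above 0 for 9 members and below 0 for Nr4a2 alone, with a median of 0.27 against 0.00 over all genes. No member's change was thus shown to differ between the genotypes, although 2 members passed in Mst1KO and 8 in WT. Single arrays moved these calls: without WT S3 replicate 3, Egr2 (0.85, adjusted p = 0.0323) and Nr4a1 (0.74, adjusted p = 0.0321) passed, and without WT S3 replicate 1, Nr4a2 did (-0.86, adjusted p = 0.0448).

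Between S1 and S2, where CD44 is gained, Egr1 was 1.32-fold higher at S2 in WT cells (0.40 ± 0.09, adjusted p = 0.0237). It was the 1 member of 10 that passed, against 3.84% of all genes. Egr3 had 0.49 ± 0.13 (adjusted p = 0.0531), Nfatc1 0.31 ± 0.10 (adjusted p = 0.117), and Nr4a2 0.20 ± 0.15 (adjusted p = 0.567). In these 4 genes the S2 arrays all lay above the S1 arrays, as they did for 10.1% of all genes. The Egr1 call was lost without WT S1 replicate 1 or 2 or WT S2 replicate 2 or 3 (adjusted p 0.0516 to 0.12). In Mst1KO cells none of the 10 passed, against 6.67% of all genes, and 1 had an unadjusted p under 0.05, namely Nr4a2 (0.48 ± 0.15, adjusted p = 0.0669). Egr1 came to 0.03 ± 0.09 there. The difference between the genotypes in this step passed for no member, against 0.0153% of all genes, with Egr1 at -0.36 ± 0.13 (adjusted p = 0.580) and as the 1 member with an unadjusted p under 0.05.

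Set against WT at the same stage, Mst1KO S3 cells had more Nr4a1 and less Nr4a2 signal. Nr4a1 was 1.55-fold higher (0.63 ± 0.12, SE, 95% interval 0.38 to 0.89, adjusted p = 0.00738), and Nr4a2 was 1.53-fold lower (-0.61 ± 0.15, -0.93 to -0.30, adjusted p = 0.0339). These were the 2 calls among 10 members, against 3.4% of all genes (2.35% higher and 1.05% lower). Egr3 had 0.44 ± 0.13, and its adjusted p was 0.0840. The arrays of Nr4a1 and Egr3 were all higher in Mst1KO without overlap, as for 13.2% of all genes, and those of Nr4a2 all lower, as for 9.79%. The other members ran from -0.27 ± 0.19 for Tox2 (adjusted p = 0.527) to 0.21 ± 0.14 for Egr2 (adjusted p = 0.523), and the median was 0.05 against 0.01 over all genes. This comparison shares the WT S3 arrays with that of S3 and S2 in WT, and the 2 are not independent. In sorted bulk samples, fewer cells of a type and less RNA per cell cannot be told apart.

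Nr4a1 passed in each of the 18 fits that left out 1 array (0.52 to 0.78), and missed it in a fit on the 6 S3 arrays alone (adjusted p = 0.0901). Nr4a2 missed it without WT S3 replicate 2 (-0.51, adjusted p = 0.115) or 3 (-0.51, adjusted p = 0.120), without Mst1KO S3 replicate 1 (-0.57, adjusted p = 0.120) or 3 (-0.58, adjusted p = 0.118), and in the fit on the 6 arrays (adjusted p = 0.159). Egr3 passed without Mst1KO S3 replicate 2 (0.57, adjusted p = 0.0443).

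At S2 no member passed between Mst1KO and WT, against 1.17% of all genes. An unadjusted p under 0.05, which was not counted over all genes, was reached by 3, and 8 of 10 estimates were below 0. Egr2 was estimated at -0.47 ± 0.14 (adjusted p = 0.136), Tox2 at -0.36 ± 0.19 (adjusted p = 0.421), Tox at -0.28 ± 0.12 (adjusted p = 0.295), Egr1 at -0.22 ± 0.09 (adjusted p = 0.312) and Nab2 at -0.11 ± 0.09 (adjusted p = 0.673). In these 5 genes every Mst1KO S2 array lay below every WT S2 array, which held for 7.12% of all genes. The median over the 10 members was -0.13, against 0.01 over all genes. At S1 none passed, against 0.33% of all genes, and none had an unadjusted p under 0.05. There Egr1 alone did not overlap, with every Mst1KO array above every WT array, as for 10.2% of all genes, at 0.15 ± 0.09 (adjusted p = 0.605). With the 3 stages averaged before the test, none passed, against 2.17% of all genes. An unadjusted p under 0.05, again not counted over all genes, was reached by 4: Nr4a1 (0.23 ± 0.06, adjusted p = 0.10), Nr4a2 (-0.27 ± 0.08, adjusted p = 0.129), Tox2 (-0.26 ± 0.07, adjusted p = 0.119) and Egr3 (0.20 ± 0.06, adjusted p = 0.146).

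**Figure D4:**
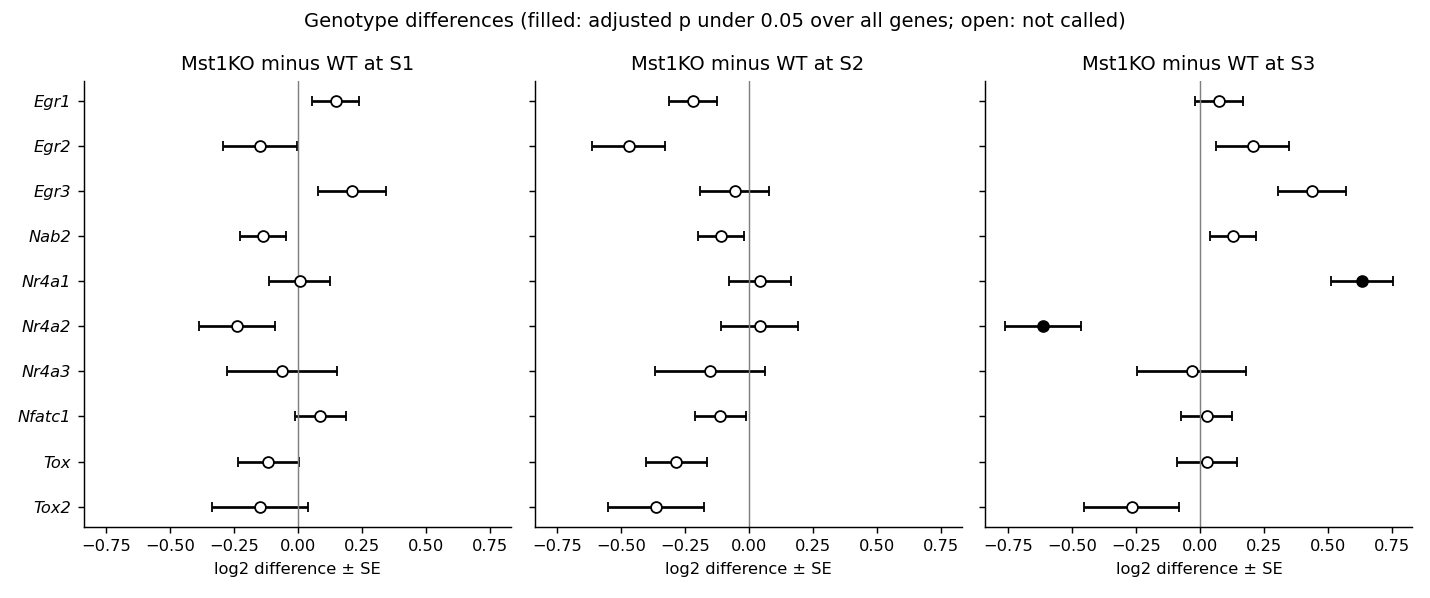
Log2 difference of Mst1KO minus WT (x axis) with its SE for the 10 genes at S1, S2 and S3; filled points passed an adjusted p under 0.05 over all genes and open points did not. The 2 filled points are Nr4a1 (0.63) and Nr4a2 (-0.61) at S3.

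The genes whose pattern over the 18 arrays was most like that of each member were found by Pearson's r, which these arrays, falling into 6 groups, raise for any gene that shares the stage pattern. For Nr4a1 they were Slamf6 (0.967), Rexo2 (0.966) and Irf4 (0.965). Irf4 averaged 6.61 ± 0.18 in Mst1KO S3 and 5.35 ± 0.25 in WT S3, and 7.86 to 8.24 in the S1 and S2 groups (SD, n = 3 each). For Nr4a2 they were Setbp1 (0.921), Bcl2l11 (0.905) and Rubcnl (0.893). Bcl2l11 averaged 7.34 ± 0.17 in Mst1KO S3 and 8.33 ± 0.05 in WT S3. Tox was most like Cdk2ap1 (0.960), Mad2l1 (0.958) and Shmt1 (0.954), and Tox2 like Pdk3 (0.917), Ndufb8 (0.910) and Syce2 (0.909). Nab2 was most like Eng (0.889), Nfatc1 like Fibcd1 (0.905) and Nr4a3 like H4c14 (0.940). Likeness was lower for the EGR genes, whose nearest were Cotl1 for Egr3 (0.884), Dcp2 for Egr2 (0.854) and Baiap2 for Egr1 (0.758).

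Among genes upstream of the members, changes between S2 and S3 ran both ways. Of 12 genes of calcineurin and its regulators 8 were tested, and between S2 and S3 Ppp3cc, a catalytic subunit, was higher at S3 by 2.02 ± 0.15 in Mst1KO (adjusted p = 1.19e-07) and by 1.93 ± 0.15 in WT (adjusted p = 8.58e-08). In Mst1KO Ppp3ca, another catalytic subunit, was lower (-0.28 ± 0.08, adjusted p = 0.0295), and no other gene of the list passed in this step. Of 20 genes of the ERK pathway and the SRF partners 15 were tested, of which 4 were higher and 1 lower at S3 in Mst1KO, and 3 higher and 2 lower in WT (17.2% and 23.6% of all genes passed in either direction). Those higher in both were the ERK phosphatase genes Dusp5 (0.50 ± 0.09 in Mst1KO and 0.67 ± 0.09 in WT) and Dusp6 (0.57 ± 0.14 and 0.83 ± 0.14), and Spry2, an inhibitor of the pathway (1.92 ± 0.33 and 1.45 ± 0.33). Srf itself was lower in WT (-0.25 ± 0.08, adjusted p = 0.0336). Of 7 relatives of the members 5 were tested, and Nfatc2 was higher at S3 in both (0.33 ± 0.10 in Mst1KO and 0.43 ± 0.10 in WT). Neither the relatives, the calcineurin list nor the ERK list had a gene that passed between Mst1KO and WT at S3.

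Genes described as EGR targets in T cells split between directions. Of 13 tested of 14 listed, 5 were higher and 3 lower at S3 than at S2 in Mst1KO, and 6 higher and 4 lower in WT, against 17.2% of all genes in Mst1KO and 23.6% in WT passing in either direction, with list medians of 0.22 in Mst1KO and 0.42 in WT. Lower in both were Id3, an inhibitor of E proteins (-1.23 ± 0.13 in Mst1KO and -1.99 ± 0.13 in WT), Nrgn (-1.22 ± 0.18 and -2.36 ± 0.18) and Zbtb16 (-0.90 ± 0.12 and -1.32 ± 0.12). Higher in both were Fasl, which encodes a death ligand (3.13 ± 0.32 and 3.28 ± 0.32), and Il2rb, a chain of the receptor for interleukins 2 and 15 (1.11 ± 0.10 and 1.00 ± 0.10), as well as Cblb, Cd69 and Socs1. Between Mst1KO and WT at S3, Id3 (0.66 ± 0.13, adjusted p = 0.0104) and Dgka, a diacylglycerol kinase that dampens receptor signals (0.49 ± 0.12, adjusted p = 0.0354), were higher and none was lower.

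Of 18 genes described as linked to NR4A or TOX in T cells 16 were tested. At S3, 3 were higher in Mst1KO than in WT and 2 lower, where 3.4% of all genes passed, and the median of the list was -0.02 against 0.01 over all genes. The higher ones were Irf4, a factor induced in proportion to receptor signals (1.26 ± 0.13, adjusted p = 2.11e-05), Cd5, an inhibitory receptor (0.44 ± 0.09, adjusted p = 0.0147), and Batf, an AP-1 partner of IRF4 (0.45 ± 0.11, adjusted p = 0.0364). The lower ones were Bcl2l11, which encodes the death protein BIM (-0.98 ± 0.19, adjusted p = 0.00712), and the inhibitory receptor gene Tigit (-1.40 ± 0.35, adjusted p = 0.0364). Irf4 also passed in the test of whether the S2 to S3 change differed between genotypes (1.09 ± 0.18, adjusted p = 0.0114), unlike every other gene of this list and all 10 members. Irf4, Cd5 and Batf were lower and Bcl2l11 and Tigit higher at S3 than at S2 in WT (-2.72 ± 0.13, -0.57 ± 0.09, -0.45 ± 0.11, 1.48 ± 0.19 and 2.28 ± 0.35).

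Sorting and tissue handling can induce the EGR and NR4A genes together with AP-1 and heat shock genes, so 28 immediate early and stress genes were read beside them. At S3, 13 of these were higher than at S2 and 1 lower in Mst1KO, and 18 higher and 0 lower in WT. Of all genes 17.2% in Mst1KO and 23.6% in WT passed in either direction. The list medians were 0.41 in Mst1KO and 0.55 in WT, against -0.03 and 0.00 over all genes. Their mean level was 8.04 at S1, 8.50 at S2 and 8.94 at S3 in Mst1KO, and 7.86, 8.30 and 8.89 in WT. Fos, Jun and Dusp1 shifted by 0.64 ± 0.21, 0.54 ± 0.14 and 1.26 ± 0.11 between S2 and S3 in WT. Nr4a2, Nr4a3 and Nfatc1 had estimates of the same sign as these, and Egr1, Egr2, Egr3, Nab2, Nr4a1, Tox and Tox2 of the opposite sign. Between Mst1KO and WT at S3 the list had 2 higher genes, Klf6 (0.72 ± 0.14, adjusted p = 0.00882) and Klf2 (0.78 ± 0.21, adjusted p = 0.0478), and 1 lower, Junb (-0.49 ± 0.10, adjusted p = 0.0138), where 3.4% of all genes passed. The mean level of the list ran from 8.90 to 8.99 on Mst1KO S3 arrays and from 8.84 to 8.93 on WT S3 arrays. The part of handling in the members' differences was not tested.

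**Figure D5:**
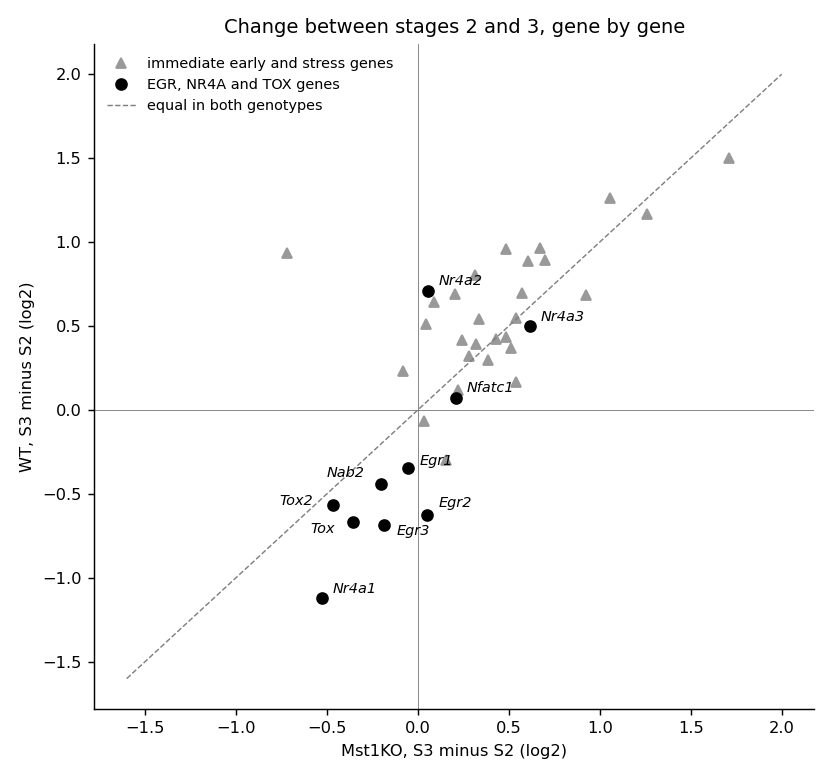
Log2 difference of S3 minus S2 in Mst1KO (x axis) and in WT (y axis), 1 point per gene, for the 10 EGR, NR4A and TOX genes (black circles) and the 28 immediate early and stress genes (grey triangles); the dashed line marks equal change. Egr1, Egr2, Egr3, Nab2, Nr4a1, Tox and Tox2 lie below 0 in WT, and Nr4a1 is lowest at -1.12, while 18 of the grey points passed as higher in WT.

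Genes listed as markers of other cells also moved with the groups, and whether the sorted iNKT cells themselves made them was not tested. At S3 the mean level of 3 tested of 7 gamma-delta T cell markers ran from 7.37 to 7.55 on Mst1KO arrays and from 5.96 to 6.47 on WT arrays. Blk (2.39 ± 0.30) and Cd163l1 (1.03 ± 0.12) passed, and Sox13 did not. The mean level of these markers was highest at S2 in both genotypes, at 8.22 in Mst1KO and 7.83 in WT. At S3 the mean level of 8 tested of 10 natural killer and innate lymphoid markers, most of which S3 iNKT cells also make, ran from 7.64 to 7.82 in Mst1KO and from 8.10 to 8.22 in WT, with Gzma lower (-3.44 ± 0.44) and Tyrobp higher (0.88 ± 0.19). The macrophage and dendritic cell list (14 of 15) ran from 6.68 to 7.02 in Mst1KO and from 6.47 to 6.67 in WT, where C1qb passed (0.94 ± 0.23). The B cell list (3 of 10) ran from 6.71 to 6.77 in Mst1KO and from 7.01 to 7.23 in WT, with Cd22 lower (-1.22 ± 0.14). The list of conventional or immature thymocytes (10 of 14) ran from 6.37 to 6.52 in Mst1KO and from 6.46 to 6.57 in WT, with Ccr9 lower (-0.68 ± 0.16). Among the defining markers, Cd79a, Ms4a1, Pax5, Ebf1, Eomes, Cd8a and Rag2 did not pass the filter on dim signals, and Rag1 and Trdc had no probe set of their own symbol alone and were not measured. Between S2 and S3 in WT, the thymocyte list ran from 6.46 to 6.57 at S3 and from 7.0 to 7.23 at S2, and the macrophage list from 6.47 to 6.67 at S3 and from 5.86 to 6.03 at S2. Fcer1g, which is on both the macrophage and the natural killer list, was higher at S3 (3.18 ± 0.16), and Ctss of the macrophage list was lower (-0.53 ± 0.11). The part of other cells in the results for the members was not tested.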

How the data were processed

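Gene expression was measured in 18 samples of sorted thymic iNKT cells on MoGene-2_0 arrays, 3 in each of 6 groups. The authors deposited log2 values per probe set, and the submitters' processing notes name RMA and Affymetrix Expression Console 1.1. This method subtracts background, equalises the arrays and combines the probes, and it compresses changes of dim probe sets. Amplified RNA of low input was labelled, per the labels' protocols. Of 41345 probe sets 23521 had 1 gene symbol, and those brighter than the array median on 3 or more arrays were kept, the brightest per gene, which left 13034 genes. Signals have no counting depth, and 3 arrays a group limit the precision.

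A mean was fitted for each of the 6 groups with limma 3.58.1 in R 4.3.3, p-values were adjusted by Benjamini-Hochberg over all genes tested, with a call at an adjusted p under 0.05. The average over stages compared 3 values with 3, each the mean of like-numbered arrays of a genotype. The fit was tested on simulated data. All 10 members were named, with the 3 genes most like each by Pearson's r and genes of fixed lists. The members and lists were chosen with earlier results of these data known. Alternatives were other filters, scalings, fits and probe set summaries, a block for replicate number, and the omission of each array in turn.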

Additional observations from a re-analysis of the deposited data

How the results depend on the processing

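Calls among the 10 members kept their direction under every alternative run, and no member called in a comparison reversed. Between Mst1KO and WT at S3 (2 called) the count was 1 with no filter, 1 with a filter at the 75th percentile, where Nr4a2 was not tested, and 0 in a fit on the compared groups alone. Between S2 and S1 in WT (1 called) it was 2 at the 75th percentile, 2 with a variance trend and robust fit, and 0 on the compared groups alone. Between S2 and S1 in Mst1KO (0 called) it was 1 after repeated quantile normalization. Between S3 and S2 in Mst1KO (2 called) it was 1 with no filter and 1 with arrays centred on their median, Tox being lost in both, and 3 with the variance trend, array weights or either replicate block, which added Nr4a3, and with the mean of probe sets, which added Nab2. On the compared groups alone Tox was lost and Nr4a3 gained. Between S3 and S2 in WT (8 called) it was 7 with no filter, array weights or the block within genotype, where Tox2 was lost, 6 on the compared groups alone, without Tox2 and Egr1, and 6 at the 75th percentile, where Nr4a2 and Tox2 were not tested. Averaged over stages (0 called) it was 1 with the variance trend. With 1 array left out the counts ran from 1 to 3 for Mst1KO against WT at S3, from 0 to 2 and from 6 to 8 for the S1 to S2 and S2 to S3 steps in WT, from 0 to 1 and from 1 to 3 for those steps in Mst1KO, and from 0 to 2 for the genotype difference in the S2 to S3 step, and they stayed at 0 elsewhere. Without WT S2 replicate 1, Nr4a3 passed as higher at S3 in WT (0.82, adjusted p = 0.00158). The replicate numbers were not taken to pair samples, since the labels do not say what a number stands for. Within a genotype, 3 of 18 pairs of the same number had correlated deviations above 0.1 (-0.05 to 0.21, median 0.06). Of 36 pairs of different numbers 0 did (median -0.02), and 17 of 18 samples correlated best with their own number. Whether a number marks a mouse was not tested. With a replicate block no member's call was lost, and Nr4a3 passed between S3 and S2 in Mst1KO (0.62, adjusted p = 0.0351), while with the block within genotype Tox2 missed it between S3 and S2 in WT (adjusted p = 0.0652). Over all genes, Mst1KO against WT at S1 gave 43 calls but 128 with the variance trend and 5 on the compared groups alone, at S2 152 but 248 and 4, and at S3 443 but 184 on those groups. At S1 array weights and the 75th percentile filter gave 93 each and no filter 28, and at S2 array weights gave 97. Averaged over stages 283 became 551 with the variance trend, and the S1 to S2 step in WT 501 became 195, the S2 to S3 step in WT 3073 became 2037, and its genotype difference 48 became 15 on those groups, while the genotype difference in the S1 to S2 step went from 2 genes to 4 with the replicate block. With 1 array left out, all-gene counts ran from 9 to 50, 39 to 179 and 200 to 453 for the genotypes at S1, S2 and S3, from 295 to 506 and 530 to 901 for the S1 to S2 step in WT and in Mst1KO, from 2 to 6 and 25 to 93 for the genotype differences in the S1 to S2 and S2 to S3 steps, and from 1 to 261 averaged over stages. The causes were not tested.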
